A study of Mus musculus with 10 samples.

Results

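The RB (retinoblastoma) pathway was examined through 10 genes: the INK4 inhibitors Cdkn2a, Cdkn2b and Cdkn2c, the CIP/KIP inhibitors Cdkn1a and Cdkn1b, the pocket protein genes Rb1, Rbl1 and Rbl2, and the G1 cyclins Ccnd1 and Ccne1. They were taken by symbol from a table of 18586 gene rows, in which all 10 were present and above 0 in every library. The table gave TPM, the share of transcripts that a gene takes in a library, scaled for transcript length, for 10 poly(A) RNA libraries of mouse tongue epithelium grown as primary cultures. The EY group (6 libraries) carried tetON_E6-E7 and tetON_YAP1S127A beside tetON_H2B-GFP, LSL-rtTA and Krt14-CreERT, and the N group (4 libraries) came from littermates with the last 3 of these alleles only. E6-E7 are the oncogenes of human papillomavirus type 16, YAP1S127A is a constitutively active form of the transcriptional co-activator YAP1, and H2B-GFP is a reporter. In both groups CreERT, a tamoxifen-activated recombinase under the promoter of the basal keratin gene Krt14, switched on rtTA, and doxycycline then drove whichever tetON alleles were present. Cells were taken 15 days after induction, grown in a first culture, sorted for GFP and returned to culture, an order that the methods give for EY cells. The ages of the mice were not given in the labels. The EY libraries came from 3 cultures (EY3960, EY4028 and EY4174, 2 libraries each) and all 4 N libraries from 1 culture, N4172, so genotype and culture cannot be told apart. Libraries of 1 culture share their source, and p-values measure the spread between libraries, which may be technical. Neither oncogene was present alone, so an effect of E6-E7 cannot be told apart from one of YAP1S127A.

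In G1, cyclin D bound to CDK4 or CDK6 and cyclin E bound to CDK2 phosphorylate the pocket proteins, which then release E2F transcription factors and allow S phase genes to be expressed. INK4 proteins block CDK4 and CDK6, whereas CIP/KIP proteins act mainly on cyclin E-CDK2. HPV16 E7 binds the pocket proteins and promotes degradation of RB, while E6 directs degradation of p53, the main activator of Cdkn1a. These are effects on protein, and RNA levels do not measure them.

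The table held between 10852 and 11522 genes at 1 TPM or more per library, and 11630 genes were tested. TPM keep no sequencing depth, so the depth behind each value is unknown. The basal epithelial markers Krt14, Krt5, Trp63, Itga6, Itgb4 and Krt15 summed to 4184 to 7138 TPM in EY and 5207 to 5946 TPM in N, mostly through Krt14 and Krt5. Within that list Krt15 (8.70 to 35.3 TPM in EY, 64.3 to 97.9 TPM in N) and Trp63 (46.0 to 60.5 TPM in EY, 70.8 to 99.9 TPM in N) were lower in every EY library than in any N library; their part in the results below was not tested. Markers of other cells were low where the table listed them: 2 of 7 fibroblast genes summed to at most 0.748 TPM, 3 of 5 endothelial genes to at most 0.606 TPM, 2 of 6 muscle genes to at most 0.933 TPM and 4 of 5 melanocyte genes to at most 3.44 TPM. Of 3 listed immune markers Ptprc and Csf1r were near 0, while Cd68, a lysosomal gene that other cells also express, reached 71.8 TPM. N replicate 4 was the lowest N library for several of the genes below. No value of it was flagged as outlying, but that check covered only 25 genes. Among listed genes outside the check, N replicate 4 was low for Ccng1 (314 TPM beside 581 to 592 TPM in the other N libraries). It was high for Ets2 (35.5 TPM beside 21.4 to 23.3 TPM).

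The promoter windows of the genes the results turn on are shown first, because E2F factors act on the promoters of several pathway genes. RefSeq windows (mouse build GRCm38.p6, 250 bases before to 50 bases after a start site, 300 bases in all, read 5′ to 3′ along the gene) were given for 8 of the 10 genes, with 11 windows between them. Capitals mark a match to 1 of 4 E2F-type words (TTTCGCGC, TTTGGCGC, TTTCCCGC or TTTGCCGC, searched on both strands). The windows of Rbl1 (chr2:157204485-157204784), of the upstream Cdkn2a start (chr4:89294570-89294869), from which the Arf transcript begins, of the downstream Cdkn2a start (chr4:89282143-89282442), from which the Ink4a transcript begins, and of Ccne1 (chr7:38107441-38107740), all on the minus strand, read as follows.
Rbl1: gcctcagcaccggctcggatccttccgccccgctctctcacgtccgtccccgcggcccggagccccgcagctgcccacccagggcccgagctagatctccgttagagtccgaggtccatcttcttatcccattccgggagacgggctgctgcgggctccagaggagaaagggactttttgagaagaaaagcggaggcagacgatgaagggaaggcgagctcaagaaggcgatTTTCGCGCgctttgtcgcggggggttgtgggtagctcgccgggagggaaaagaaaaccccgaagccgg
Cdkn2a upstream: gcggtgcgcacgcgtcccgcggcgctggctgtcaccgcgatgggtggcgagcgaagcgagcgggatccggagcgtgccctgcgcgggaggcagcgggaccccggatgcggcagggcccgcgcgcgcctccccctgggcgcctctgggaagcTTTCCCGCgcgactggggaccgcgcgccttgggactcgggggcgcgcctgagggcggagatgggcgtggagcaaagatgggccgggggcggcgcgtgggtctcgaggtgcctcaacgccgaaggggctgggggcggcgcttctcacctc
Cdkn2a downstream: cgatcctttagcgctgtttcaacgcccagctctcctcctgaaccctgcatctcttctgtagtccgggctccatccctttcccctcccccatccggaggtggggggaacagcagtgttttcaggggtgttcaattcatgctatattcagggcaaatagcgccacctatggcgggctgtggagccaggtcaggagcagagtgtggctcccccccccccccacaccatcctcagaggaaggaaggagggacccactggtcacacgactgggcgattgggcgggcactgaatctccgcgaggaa
Ccne1: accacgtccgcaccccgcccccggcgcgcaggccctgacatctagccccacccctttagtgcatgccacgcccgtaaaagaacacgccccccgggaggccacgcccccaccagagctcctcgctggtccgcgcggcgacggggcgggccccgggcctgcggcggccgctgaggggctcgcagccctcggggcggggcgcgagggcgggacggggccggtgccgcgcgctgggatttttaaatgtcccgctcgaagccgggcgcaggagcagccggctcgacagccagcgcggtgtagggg

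The Rbl1 window held TTTCGCGC 18 bases before the start site and the upstream Cdkn2a window held TTTCCCGC 99 bases before it. None of the 4 words was present in the other 9 windows, those of the downstream Cdkn2a start and of Ccne1 included. Across 32851 mouse promoter windows of the same length, 744 (2.26%) held at least 1 of these words. The other words were likewise searched on both strands. The CHR-type word TTTGAA, of the kind bound by the MuvB complex, was found in the windows of Cdkn2b and Rbl2, in both on the strand opposite to the gene and in 0 windows of these genes along it, and in 17.9% of all windows on either strand. The TEAD-type word CATTCC, of the kind bound by the DNA-binding partners of YAP, was found in the Rbl1 window alone among the 11 and in 14.7% of all windows. The AP-1-type word TGANTCA was in no window of these genes and in 7.81% of all windows. A match describes letters and not occupancy by a factor. Only these exact words were searched, so a window without a match is not shown to lack a site.

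To determine whether the INK4 inhibitors differed between EY and N cells, each was compared on log2(TPM + 1) with limma. Calls needed both a change larger than 1 on the log2 scale, in either direction, and a p below 0.01 after Benjamini-Hochberg adjustment, as the study set them. Cdkn2a, which encodes both p16INK4a and the MDM2 antagonist p19ARF, was the member with the clearest difference. Its levels were 32.8 and 32.7 TPM in EY3960, 27.4 and 28.8 TPM in EY4028, and 23.5 and 31.2 TPM in EY4174. The N libraries held 15.6, 15.03, 15.6 and 12.7 TPM, so every EY library lay above every N library. The means were 29.4 ± 3.60 TPM (SD, n = 6) and 14.7 ± 1.39 TPM (SD, n = 4), a ratio of 2.00. The log2 fold change was 0.95 ± 0.11 (SE) with an adjusted p of 9.92e-05, which passed the p threshold and fell just short of the size threshold. All 3 lines were higher than N, with log2 fold changes of 1.11 in EY3960 (adjusted p = 7.84e-05), 0.89 in EY4028 (adjusted p = 4.30e-04) and 0.84 in EY4174 (adjusted p = 7.10e-04). The lines did not differ detectably from each other in Cdkn2a (adjusted p = 0.334, limma F test). With each line reduced to its mean the adjusted p was 0.185, and without EY4174 replicate 1 the log2 fold change was 1.01 and the gene was called. With 1 library left out of a line the adjusted p rose to 0.0107 in EY4028 (without replicate 2) and 0.0130 in EY4174 (without replicate 2). The Cdkn2a row cannot divide the Ink4a from the Arf transcript.

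Cdkn2b, the neighbour of Cdkn2a that encodes p15INK4b, had its highest levels in EY4174. EY4174 held 7.69 and 8.74 TPM, against 6.04 and 5.66 TPM in EY3960, 5.66 and 5.80 TPM in EY4028, and 4.27 to 5.39 TPM in N. Although all 6 EY libraries exceeded all N libraries, the joint log2 fold change was 0.33 ± 0.13 (SE, adjusted p = 0.0924). Against N the log2 fold change was 0.62 in EY4174 (adjusted p = 0.00376), 0.20 in EY3960 (adjusted p = 0.262) and 0.17 in EY4028 (adjusted p = 0.322). The EY4174 value did not pass without EY4174 replicate 1 (adjusted p = 0.0130) or replicate 2 (adjusted p = 0.0496). The difference among the lines themselves did not pass (adjusted p = 0.0653). Cdkn2c, which encodes p18INK4c, was at 4.44 to 6.11 TPM in EY and 2.87 to 5.50 TPM in N, with overlapping groups and a log2 fold change of 0.24 ± 0.15 (SE, adjusted p = 0.283). That value was 0.08 without N replicate 4, the lowest N library.

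Because TPM are scaled for length, the INK4 transcripts could be added. With Cdkn2d, which encodes p19INK4d, the 4 INK4 genes summed to 41.2 to 51.2 TPM in EY and 22.3 to 32.4 TPM in N, so the sums did not overlap. Cdkn2a made up 63.0% ± 3.37 (SD, n = 6) of the sum in EY and 51.2% ± 3.95 (SD, n = 4) in N. These sums were formed after the values had been seen and were not tested.

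**Figure D1:**
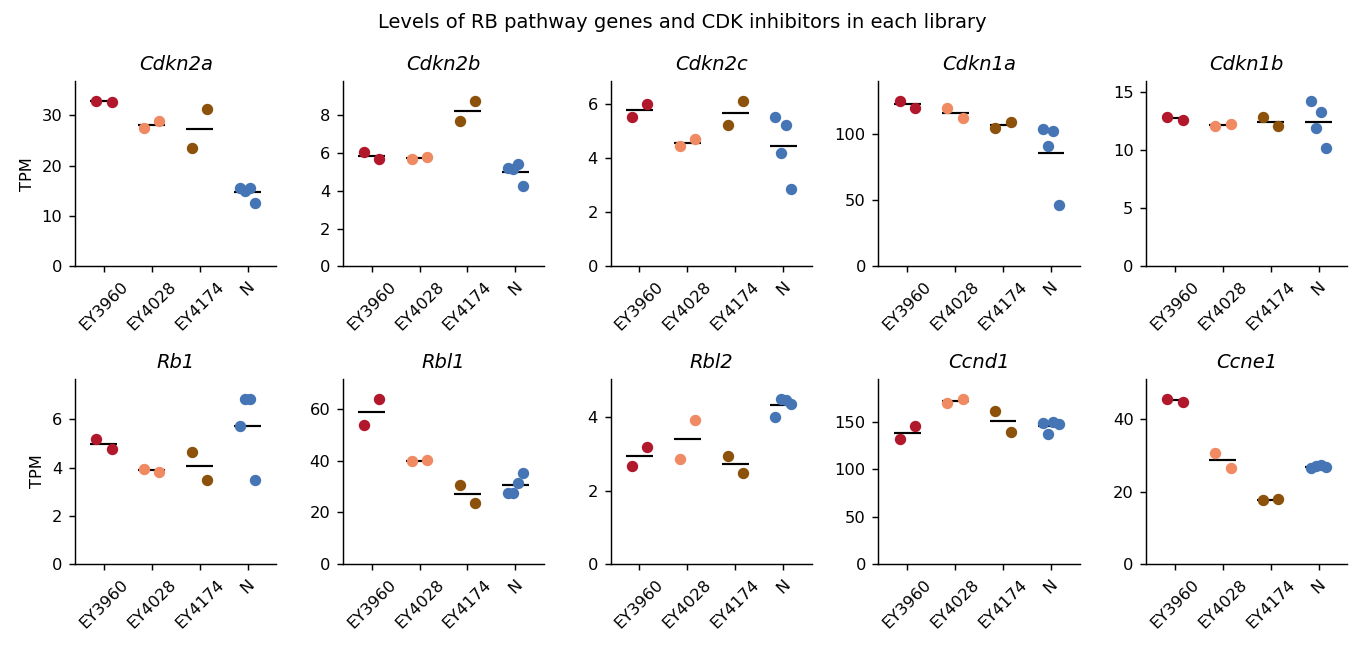
TPM of the 10 genes (vertical axis, from 0) in each library, by culture (horizontal axis); points are libraries and bars are means of a culture. Cdkn2a lies between 23.5 and 32.8 TPM in EY and between 12.7 and 15.6 TPM in N, while Rbl1 and Ccne1 step down from EY3960 through EY4028 to EY4174.

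Among the CIP/KIP inhibitors, Cdkn1a, which encodes p21 and is a direct p53 target, was at 125 and 120 TPM in EY3960, 120 and 112 TPM in EY4028, and 104 and 109 TPM in EY4174. The N libraries held 103.9, 91.5, 102.6 and 46.2 TPM. No EY library fell below the highest N library, but the gap was narrow, from 103.9 TPM in N to 104.3 TPM in EY. The log2 fold change was 0.48 ± 0.19 (SE, adjusted p = 0.0952), and it was 0.21 without N replicate 4 (adjusted p = 0.0651). In EY3960 it was 0.57 (adjusted p = 0.186) with all libraries and 0.30 without N replicate 4, when it passed (adjusted p = 0.00656). Cdkn1b, which encodes p27, was the most even of the 10 genes between the groups, with 12.5 ± 0.376 TPM (SD, n = 6) in EY and 12.4 ± 1.75 TPM (SD, n = 4) in N. Its log2 fold change of 0.01 had a 95% confidence interval of -0.20 to 0.22, and its sign turned under several alternative scalings.

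None of the 3 pocket protein genes passed in EY against N, and their signs differed. Rbl2, which encodes p130, the pocket protein of resting cells, was the only one whose groups did not overlap. It was at 2.67 and 3.19 TPM in EY3960, 2.85 and 3.93 TPM in EY4028, and 2.95 and 2.47 TPM in EY4174, below the N values of 4.00, 4.50, 4.45 and 4.35 TPM. Its log2 fold change was -0.42 ± 0.12 (SE) with an adjusted p of 0.0223, past neither threshold. The adjusted p was 0.00659 after quantile normalization and 0.00828 with median-ratio size factors. Per line the log2 fold change was -0.44 in EY3960, -0.29 in EY4028 and -0.52 in EY4174, and none passed.

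Rb1, which encodes the retinoblastoma protein itself, was at 3.48 to 5.20 TPM in EY with a median of 4.31 TPM. The N libraries held 5.71, 6.86, 6.86 and 3.50 TPM. Replicate 4 lay within the EY range, and each of the other 3 N libraries lay above all EY libraries. The log2 fold change was -0.32 ± 0.17 (SE, adjusted p = 0.192) with all libraries and -0.50 ± 0.13 (SE, adjusted p = 0.0186) without N replicate 4. Without that library EY4028 (log2 fold change -0.61, adjusted p = 0.00520) and EY4174 (log2 fold change -0.57, adjusted p = 0.00800) passed the p threshold for Rb1, which neither did with it (adjusted p = 0.161 and 0.206).

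Rbl1, which encodes p107, the pocket protein of cycling cells, differed between the EY lines more than between EY and N. Its levels were 54.0 and 64.0 TPM in EY3960, 39.9 and 40.2 TPM in EY4028, 30.7 and 23.5 TPM in EY4174, and 27.7, 27.5, 31.6 and 35.3 TPM in N. EY3960 and EY4028 lay above all N libraries, whereas EY4174 overlapped with N. The joint log2 fold change was 0.38 ± 0.24 (SE, adjusted p = 0.269). Against N it was 0.93 in EY3960 (adjusted p = 4.21e-04), 0.39 in EY4028 (adjusted p = 0.0488) and -0.17 in EY4174 (adjusted p = 0.364). The EY3960 value passed the size threshold too, so that Rbl1 was called there, without N replicate 4 (1.00) and without EY3960 replicate 1 (1.05), and it missed the adjusted p without EY3960 replicate 2 (0.81, adjusted p = 0.0111). EY4174 was 1.10 lower than EY3960 on the log2 scale and the lines differed (adjusted p = 0.00191, limma F test). That call was lost without EY3960 replicate 2 (largest difference 0.98, adjusted p = 0.0199) and without EY4174 replicate 2 (largest difference 0.92, adjusted p = 0.0152).

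Added together, the 3 pocket protein transcripts came to 66.9 TPM in EY3960, 47.3 TPM in EY4028, 33.9 TPM in EY4174 and 40.6 TPM in N, as means over libraries. Rbl1 was the main transcript everywhere, with 79.8% to 88.9% of the sum in EY libraries and 70.8% to 81.8% in N. The highest of these N shares was that of N replicate 4.

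Of the G1 cyclins, Ccnd1, which encodes cyclin D1, was the most abundant of the 10 transcripts in both groups, at 154 ± 17.4 TPM (SD, n = 6) in EY and 146 ± 6.13 TPM (SD, n = 4) in N. The groups overlapped, and the log2 fold change of 0.07 had a 95% confidence interval of -0.12 to 0.26 (adjusted p = 0.597). EY4028 was the highest line, at 170 and 175 TPM (log2 fold change against N 0.24, adjusted p = 0.0459).

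Ccne1, which encodes cyclin E1, an E2F target, had nearly the same mean in EY and N but separated the EY lines most clearly. It was at 45.7 and 44.7 TPM in EY3960, 30.8 and 26.5 TPM in EY4028, and 17.6 and 18.0 TPM in EY4174, while the 4 N libraries lay between 26.6 and 27.5 TPM. EY3960 was thus above N, EY4174 below N, and EY4028 on either side of it. Against N the log2 fold change was 0.72 in EY3960 (adjusted p = 1.03e-04), 0.08 in EY4028 (adjusted p = 0.512) and -0.57 in EY4174 (adjusted p = 7.16e-04). EY3960 exceeded EY4174 by 1.30 on the log2 scale (adjusted p = 2.14e-05 among the lines, limma F test), a ratio of 2.54 between the line means. The joint log2 fold change was 0.08 ± 0.26 (SE, adjusted p = 0.862), with a 95% confidence interval of -0.51 to 0.66. It was -0.25 without line EY3960.

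**Figure D2:**
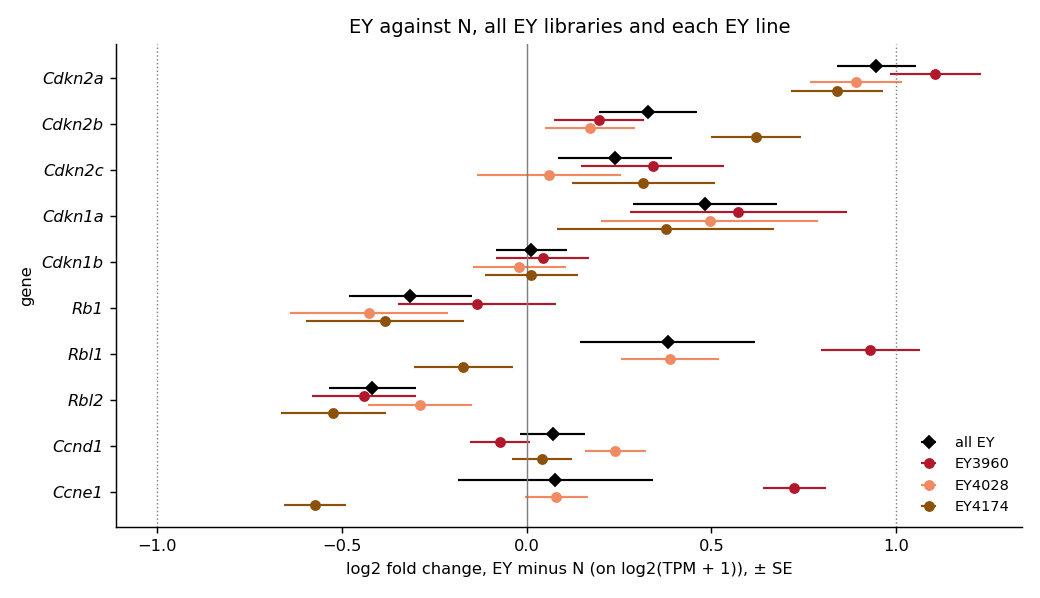
Log2 fold change of each gene (vertical axis) against N on log2(TPM + 1) (horizontal axis), for all EY libraries (diamonds) and for each EY line (circles), with standard errors as bars and dotted lines at -1 and 1. The Cdkn2a values lie together near 0.95, whereas the Ccne1 values run from -0.57 in EY4174 to 0.72 in EY3960.

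Counted together, none of the 10 genes was called by limma in EY against N, where 3.55% of all tested genes were called. An unadjusted p under 0.05 was reached by 4 of the 10 and by 4367 of the 11630 genes. Cdkn2a alone passed the adjusted p at any fold change, which 11.8% of all genes did, and 6.84% of all genes did so with a higher level in EY. Cdkn2a, Cdkn2b and Cdkn1a lay above all N libraries in every EY library and Rbl2 lay below them, 4 of 10 genes against 20.4% of all genes. The median log2 fold change of the 10 was 0.16, beside 0.03 over all genes. In EY3960 against N Cdkn2a was the only one of the 10 called, beside 7.04% of all genes, and Cdkn2a, Rbl1 and Ccne1 passed the adjusted p, beside 17%. In EY4028 none was called, beside 5.74%, and Cdkn2a passed the adjusted p, beside 16.7%. An unadjusted p under 0.05 was reached in EY4028 by 3 of the 10 and by 4783 of the 11630 genes. In EY4174 none was called, beside 4.95%, and Cdkn2a, Cdkn2b and Ccne1, the last with a lower level, passed the adjusted p, beside 15.6%. There 4 of the 10 and 4810 of the 11630 genes had an unadjusted p under 0.05. Among the EY lines Rbl1 and Ccne1 passed the adjusted p, as did 8.55% of all genes, and both were also over 1 apart, as were 5.12%. The 3 comparisons by line share the same N libraries.

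The order of levels within each group was compared next. In EY it ran Ccnd1, Cdkn1a, Rbl1, Ccne1, Cdkn2a, Cdkn1b, Cdkn2b, Cdkn2c, Rb1 and Rbl2 from high to low. Ranges of TPM over the EY libraries overlapped between the neighbours Rbl1 and Ccne1, Ccne1 and Cdkn2a, Cdkn2b and Cdkn2c, Cdkn2c and Rb1, and Rb1 and Rbl2. Within each EY library, however, Rbl1 was above Ccne1 and Cdkn2c was above Rb1. The order within the other overlapping pairs changed between EY libraries. Rb1 stood 7th in N and 9th in EY, although in N it overlapped with Cdkn2b, its neighbour in the order.

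Over the 6 EY libraries Rbl1 and Ccne1 moved together (Pearson's r = 0.95 on log2(TPM + 1), and 0.86 over all 10 libraries). Over the 6, Cdkn1b ran with Rb1 (r = 0.94, and 0.57 over all 10) and Cdkn1a with Ccne1 (r = 0.93, and 0.23 over all 10). Cdkn2b ran against Rbl1 (r = -0.85, and -0.25 over all 10) and against Ccne1 (r = -0.81, and -0.49 over all 10). Cdkn2c ran against Ccnd1 (r = -0.83, and -0.17 over all 10). The points are pairs of libraries from 3 cultures, so these values are descriptions and carry no test. Cdkn1a and Cdkn1b did not differ detectably among the lines (adjusted p = 0.894 and 0.939, limma F test). EY3960 above EY4028 above EY4174 in mean level held for 4 of the 10 genes, beside 23.8% of all genes. Over the 10 libraries the genes whose pattern was most like that of Cdkn2a were Pmvk (r = 0.99), Ndufb6 (r = 0.98) and Exoc3l4 (r = 0.98). Pmvk was at 38.0 TPM in EY and 14.6 TPM in N, Ndufb6 at 301 and 251 TPM, and Exoc3l4 at 3.24 and 0.136 TPM.

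The genes around the 10 were then examined as 7 lists with 81 genes. Among 8 other G1 cyclins, CDKs and their activator Cdc25a, Ccnd2 was called lower and none passed in the other direction, with a median log2 fold change of -0.03. Over all genes 3.55% were called in either direction. Ccnd2, which encodes cyclin D2, was at 39.5 and 44.6 TPM in EY3960, 56.8 and 59.4 TPM in EY4028, and 65.7 and 51.7 TPM in EY4174. The N libraries held 282, 100, 217 and 125 TPM, which did not overlap with EY but varied widely. The log2 fold change was -1.65 ± 0.27 (SE, adjusted p = 0.00197), and the adjusted p was 0.0940 with line as a random block, 0.0108 without line EY3960 and 0.0102 without line EY4028. Ccnd3, which encodes cyclin D3, was at 29.2 TPM in EY and 24.1 TPM in N (log2 fold change 0.27, adjusted p = 0.0481).

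Through Ccnd2, the make-up of the D cyclin transcripts differed although Ccnd1 itself did not pass. Ccnd1 made up 63.6% to 66.3% of the D cyclin sum in EY libraries and 32.6% to 52.9% in N, and Ccnd2 19.7% to 25.9% in EY and 38.8% to 61.6% in N. The sum was 236 ± 25.9 TPM (SD, n = 6) in EY and 351 ± 90.0 TPM (SD, n = 4) in N, with N replicate 2, at 258.7 TPM, inside the EY range. These shares were formed after the values had been seen and were not tested. Cdk4, a kinase partner of the D cyclins, was at 245 TPM in EY and 249 TPM in N (log2 fold change -0.02, adjusted p = 0.928), a gene named after its values were seen.

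**Figure D3:**
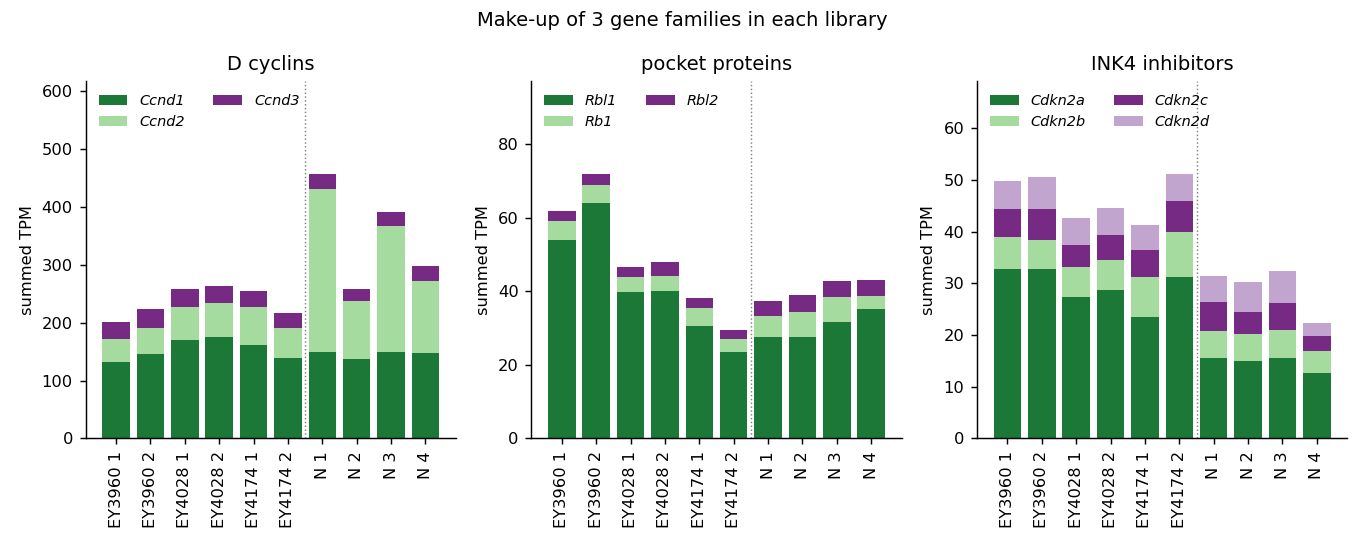
Summed TPM (vertical axis, from 0) of the D cyclins, the pocket proteins and the INK4 inhibitors in each library (horizontal axis), stacked by gene, with a dotted line between EY and N. Ccnd2 fills 38.8% to 61.6% of the D cyclin sum in N and at most 25.9% in EY, and the INK4 sum is at least 41.2 TPM in EY and at most 32.4 TPM in N.

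Of 6 other CDK inhibitors and turnover factors, 1 was called lower, beside 3.55% of all genes called in either direction. That gene was Fbxw7, which encodes the ubiquitin ligase subunit that marks cyclin E for degradation. It was at 2.89 ± 0.403 TPM (SD, n = 6) in EY and 6.91 ± 1.39 TPM (SD, n = 4) in N. The log2 fold change was -1.01 ± 0.14 (SE, adjusted p = 3.48e-04). The value stood at the edge of the size threshold, and the call was lost in 7 of 23 alternatives, 4 of which left out 1 library (EY3960 replicate 1 or 2, or N replicate 2 or 3, at -0.97, -0.99, -0.98 and -0.92). Skp2, which encodes a subunit of the ligase that degrades p27, was at 13.8 TPM in EY and 12.7 TPM in N (a log2 difference of 0.11, adjusted p = 0.484). The list's median was 0.11, and 0.017 without N replicate 4.

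None of the 9 tested E2F and DP genes passed the adjusted p by limma, although 4 higher and 2 lower genes had an unadjusted p under 0.05, and their median was 0.20 (0.066 without N replicate 4). Over all genes 11.8% passed the adjusted p, and 2471 higher and 1896 lower of 11630 reached an unadjusted p under 0.05. E2f6, a repressor of the family, was at 18.5 TPM in EY and 13.5 TPM in N (log2 fold change 0.42, adjusted p = 0.0151), and E2f4, the partner of p107 and p130, was at 34.6 and 25.3 TPM (0.43, adjusted p = 0.0228). Both passed without EY3960 replicate 1 (adjusted p = 0.00858 for E2f6 and 0.00925 for E2f4). E2f1, the activator bound by RB, is added because of its values by line, seen beforehand. It was at 13.3 ± 3.41 TPM (SD, n = 6) in EY and 8.07 ± 1.18 TPM (SD, n = 4) in N (log2 fold change 0.63, adjusted p = 0.0268). Its log2 fold change against N was 0.96 in EY3960 (adjusted p = 2.63e-04), 0.76 in EY4028 (adjusted p = 0.00158) and 0.17 in EY4174 (adjusted p = 0.362), and the lines differed by up to 0.80 (adjusted p = 0.00890). Of 7 MuvB and DREAM partners, which join p130 and p107 in the repressor of cell cycle genes or MYB and FOXM1 in the activator, Mybl2 alone passed the adjusted p. Over all genes 11.8% did. Mybl2, which encodes B-MYB, was at 18.3 ± 1.91 TPM (SD, n = 6) in EY and 11.1 ± 0.895 TPM (SD, n = 4) in N. Its log2 fold change was 0.68 ± 0.10 (SE, adjusted p = 5.42e-04). Rbbp4, a histone-binding subunit of MuvB, had a log2 fold change of 0.26 (adjusted p = 0.0272), and the list's median was 0.12.

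The 20 E2F target genes of DNA replication had a median log2 fold change of 0.06, beside 0.03 over all genes. None was called by limma, beside 3.55% of all genes. An unadjusted p under 0.05 was reached by 4 higher and 3 lower genes, and by 4367 of all 11630 genes. None rose past the adjusted p and 1 fell, whereas 795 of all 11630 genes rose and 582 fell past it. The gene that fell was Tk1, which encodes thymidine kinase. It was at 64.5 ± 4.14 TPM (SD, n = 6) in EY and 88.7 ± 4.98 TPM (SD, n = 4) in N (log2 fold change -0.46 ± 0.07 SE, adjusted p = 9.02e-04). Pcna, which encodes the sliding clamp of DNA polymerase, was at 415 TPM in EY and 495 TPM in N (-0.25 on the log2 scale, adjusted p = 0.0309, or 0.00806 without N replicate 4). With line as a random block the adjusted p was 0.0409 for Tk1 and 0.0264 for Mybl2, over the threshold.

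Regulators and neighbours of the Cdkn2a locus were listed because the Polycomb complexes are known to repress it and ETS factors to activate it. Of 12 tested genes, Ets1 alone passed the adjusted p, at a change under the size threshold, and the median was -0.0039. Over all genes 11.8% passed the adjusted p. An unadjusted p under 0.05 was reached by 3 of the 12, beside the same 4367 of 11630. Ets1 was at 17.4 ± 1.42 TPM (SD, n = 6) in EY and 10.2 ± 0.807 TPM (SD, n = 4) in N, with all EY libraries above N and a log2 fold change of 0.72 ± 0.09 (SE, adjusted p = 2.11e-04, or 0.0192 with line as a random block). Ezh2, the Polycomb methyltransferase, had a log2 fold change of 0.28 (adjusted p = 0.0353). Id1, also listed, missed the filter of 1 TPM or more in at least 4 libraries and was not tested. It was at 0.238 to 1.95 TPM in EY and 0.0595 to 0.130 TPM in N, with all EY libraries above N at values near the floor.

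Of 16 tested genes of p53 and its targets, 1 was called higher and 2 were called lower. Over all genes 215 were called higher and 198 lower of 11630. An unadjusted p under 0.05 was reached by 5 of the 16, beside 4367 of 11630. The median of the 16 was 0.12 with all libraries and -0.048 without N replicate 4. Aen, which encodes an apoptosis-enhancing nuclease, was at 83.4 ± 5.90 TPM (SD, n = 6) in EY and 36.6 ± 2.64 TPM (SD, n = 4) in N (log2 fold change 1.17 ± 0.08 SE, adjusted p = 1.66e-06). Trp53inp1, a p53-induced cofactor, fell from 49.3 ± 11.1 TPM (SD, n = 4) in N to 17.7 ± 5.51 TPM (SD, n = 6) in EY (log2 fold change -1.45 ± 0.23 SE, adjusted p = 0.00110). Sesn1, which encodes the stress protein sestrin 1, fell from 7.64 ± 1.06 TPM (SD, n = 4) to 3.06 ± 0.946 TPM (SD, n = 6), or -1.11 ± 0.17 on the log2 scale (SE, adjusted p = 8.43e-04). Trp53inp1, Sesn1 and Aen thus went in different directions, and Cdkn1a, from the same group of p53 targets, passed in neither. The calls of Trp53inp1 and Sesn1 were lost with line as a random block (adjusted p = 0.0264 and 0.0186), and that of Sesn1 also without line EY3960 (log2 fold change -0.96).

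**Figure D4:**
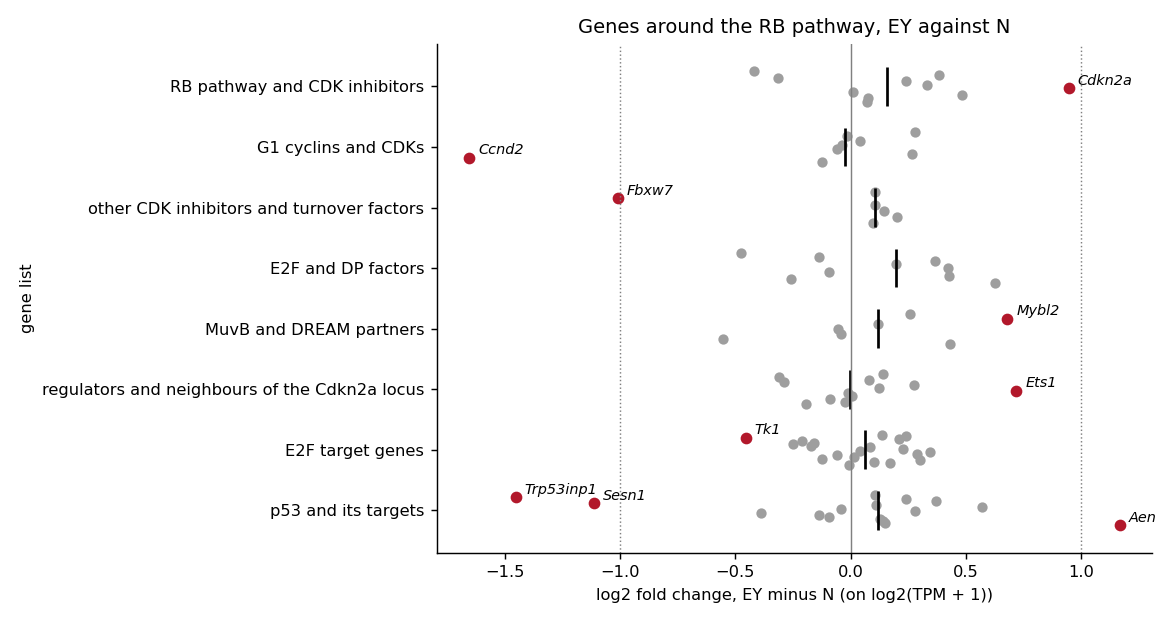
Log2 fold change, EY minus N (horizontal axis), of each tested gene in the 10-gene set and the 7 lists (vertical axis), with list medians as black bars, dotted lines at -1 and 1, and red named points for an adjusted p under 0.01. Most points lie within 0.5 of 0, and Cdkn2a is the only red point among the 10.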

How the data were processed

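Poly(A) RNA was measured in 10 libraries from 4 primary cultures, and the authors deposited 1 table of TPM per gene symbol. The submitters' notes name STAR 2.7.9, SAMtools 1.7, HTSeq 0.13.5, DESeq2 1.34.0 and build GRCm39, while the methods also describe TPM from Kallisto for enrichment analysis; which step made this table is not given in the sources used here. Column sums of 998358 to 998951 do not give depth. Mitochondrially encoded transcripts took 14.1% to 20.5% of the TPM, and 20 symbols had been turned into dates.

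A gene was tested where 4 or more libraries held 1 TPM or more, on log2(TPM + 1), a scale that understates changes of low genes, with limma 3.58.1 (trend and robust options, R 4.3.3) and Benjamini-Hochberg adjustment over all 11630 genes. Adjusted p-values are from limma. Models compared EY with N, each of the 3 EY lines with N, and the EY lines by an F test. limma was tested on simulated data. Alternatives changed the pseudocount (0.1), filter, scaling, moderation and blocks, used line means, and left out each library or line. The 10 genes and all lists were chosen with earlier results of these data known. Named genes were the 10, from each list those called in EY against N and the 2 with the smallest adjusted p, and the 3 genes best correlated with a member past an adjusted p of 0.01. E6 and E7 reads were not analysed here. RefSeq promoter windows were not given for Rb1 and Ccnd1.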

Additional observations from a re-analysis of the deposited data

Results flagged for a closer look

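Rbl1 differed among the EY lines, with the highest and lowest line 1.10 apart on the log2 scale (adjusted p = 0.00191, limma F test). Ccne1 differed likewise, with lines 1.30 apart (adjusted p = 2.14e-05). Within N, replicate 2 was low for Ccnd1, at 137 TPM beside 148 to 150 TPM in the other N libraries, and replicate 3 was high for Skp2, at 14.1 TPM. These were 2 of 50 groups of values examined over 25 genes, where chance gives about 2.5. No value of N replicate 4 was flagged in these 25 genes, and the other listed genes were not examined in this way.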

How the results depend on the processing

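Cdkn2a stayed higher in EY in all 23 alternatives, with a log2 fold change of 0.87 to 1.01, and Ccne1 kept its difference among the EY lines in all 18 that were run for it. Genes called in EY against N numbered 413, and 216 with at least 1 TPM required in every library, 203 with line as a random block, 2 with line means as samples and 221 with sample number as a replicate block. With 1 library left out they numbered 295 to 444. The filter of at least 1 TPM in every library gave 455 calls in EY3960, 371 in EY4028, 317 in EY4174 and 350 among the EY lines. With 1 library left out these were 637 to 875, 453 to 699, 443 to 600 and 400 to 716. Genes past the adjusted p at any fold change numbered 1377, and 248 with line as a random block, 2 with line means, 345 with the replicate block, 767 without line EY4028 and 690 to 1424 with 1 library left out (728, 690 and 722 without N replicate 1, 2 and 3). Of the 10 genes, 2 passed the adjusted p after quantile normalization and 2 with median-ratio size factors, through Rbl2, and 0 with line means; 0 to 1 was called with 1 library left out.

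Adjusted p in EY against N ran over the 23 alternatives from 6.17e-05 to 0.185 for Cdkn2a, 0.00659 to 0.626 for Rbl2, 0.0186 to 0.720 for Rb1, 9.68e-04 to 0.0959 for Ccnd2, 1.69e-04 to 0.246 for Fbxw7, 9.98e-05 to 0.317 for Sesn1, 2.21e-04 to 0.296 for Trp53inp1, 2.30e-04 to 0.319 for Mybl2, 7.74e-05 to 0.258 for Ets1 and 2.12e-04 to 0.387 for Tk1, each highest with line means, and from 0.0651 to 0.533 for Cdkn1a, highest with line as a random block. With the replicate block the adjusted p was 0.0223 for Ccnd2, 0.0133 for Trp53inp1, 0.0375 for Sesn1, 0.0123 for Mybl2, 0.0105 for Ets1, 0.0348 for Tk1 and 0.0171 for Cdkn2b in EY4174, and Rbl1 was called in EY3960 (1.06, adjusted p = 7.80e-04).

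Signs turned for some uncalled differences. Cdkn1b in EY against N was -0.022 after quantile normalization, -0.015 with median-ratio size factors, -0.014 without mitochondrial transcripts, -0.061 with the replicate block, -0.0038 without line EY3960 and -0.071 to 0.076 with 1 library left out. Without line EY4028 Ccnd1 was -0.015, and without line EY3960 Ccne1 was -0.25 (-0.056 to 0.21 with 1 library left out). In EY3960 Cdkn1b was -0.014 without mitochondrial transcripts, -0.030 with the replicate block and -0.039 to 0.11 with 1 library left out. In EY4028 Cdkn2c was -0.072 after quantile normalization, -0.033 with median-ratio size factors, -0.061 with the replicate block and -0.095 to 0.15 with 1 library left out, Cdkn1b was -0.10 to 0.044, and Ccne1 was -0.030 with median-ratio size factors and -0.024 to 0.19 with 1 library left out. In EY4174 Cdkn1b was -0.019 without mitochondrial transcripts, -0.061 with the replicate block and -0.071 to 0.076 with 1 library left out, Rbl1 was -0.36 to 0.014 and Ccnd1 -0.063 to 0.15. The median of the E2F targets was -0.018 after quantile normalization, and that of the p53 list was -0.048 without N replicate 4, -0.026 with the replicate block and -4.2e-04 without line EY3960. Without line EY4028 the median of the E2F and DP genes was 0.083 and that of the other CDK inhibitors and turnover factors 0.0016. The causes were not tested.

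The sample numbers gave correlations of -0.15 to 0.10 between equally numbered libraries and do not pair them, so the replicate block rests on a shared number only. A line with 1 library left is assumed to vary like the others. Depth is unknown, and the genes near 3 TPM, such as Rbl2, may carry more counting error than those above 100 TPM.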
